A study of Homo sapiens with 30 samples.

Results

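The genes described here are 10 adhesion G protein-coupled receptors (adhesion GPCRs) measured in human acute myeloid leukemia (AML) cell lines. They are the latrophilin genes ADGRL1, ADGRL2 and ADGRL3, their relative ADGRL4, the EGF-module receptor genes ADGRE1, ADGRE2 and ADGRE5, and the group G genes ADGRG1, ADGRG3 and ADGRG5. The group was chosen by measured values of these same libraries, because ADGRL3 was lower in MV4-11 cells with an MPC1 deletion and ADGRL2 was lower in Molm-14 cells with added miR-1. Both of those contrasts are therefore given as descriptions, with no test. All 10 genes were matched by symbol to an Ensembl identifier, out of 60675 genes listed for the overexpression series and 58051 listed for the knockout series. After a filter on low counts, 6 of the 10 genes could be tested in the overexpression libraries and 7 in the knockout libraries.

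RNA sequencing covered 30 libraries in 10 groups, with n = 3 libraries in each. The overexpression series used MV4-11 and Molm-14 cells transduced with a pLenti-EF1α-GFP vector holding MIR1-2 host gene sequence (miR-1 OE) or with an empty vector (EV). For the knockout series the cells, which were MV4-11, Molm-14 or THP-1, had an MPC1 deletion made with CRISPR/Cas9 (KO) or only the empty vector. The deletion in each of these lines was made with a GFP-marked lentiCRISPRv2 construct holding 1 guide. MV4-11 and Molm-14 carry an internal tandem duplication in FLT3, THP-1 is wild type for FLT3, and MPC1 encodes a subunit of the mitochondrial pyruvate carrier. Whether the libraries of a group came from separate infections, clones or cultures is not stated, so every p-value here measures only the spread between these libraries, which may be technical.

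Adhesion GPCRs have a long extracellular part with adhesion modules, which in most members is cut from the seven-helix membrane part at an autoproteolysis site, with both pieces staying together at the cell surface. Binding of a ligand or a pull on the extracellular part can expose a tethered agonist that activates G proteins. Latrophilins are best known at synapses, where they bind teneurins and FLRT proteins, whereas ADGRE2 (EMR2) and ADGRE5 (CD97) are leukocyte receptors, of which CD97 binds CD55. ADGRE1 (EMR1) marks human eosinophils, ADGRG1 (GPR56) is found on cytotoxic lymphocytes and on some leukemic stem cells, and ADGRG3 (GPR97) is found on neutrophils.

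Because miR-1 was the agent of the overexpression series, the members were searched for matches to its seed. The mature miR-1 sequence is shown first, with its seed (bases 2 to 8) in capitals, as taken from RefSeq (GRCh38.p14, chr20:62554351-62554372, plus strand). These coordinates are those of the MIR1-1 locus, whereas the vector held MIR1-2 host gene sequence. The paper states that either locus can give mature miR-1. The other lines are the windows round the 6-base match CATTCC, in capitals, in the 3′ UTR of ADGRL2 (chr1:81992465-81992494, plus strand) and of ADGRG1 (chr16:57664810-57664839, plus strand), both on GRCh38.
hsa-miR-1-3p: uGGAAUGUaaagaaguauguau
ADGRL2: aacatgttggtcCATTCCcaccttggttta
ADGRG1: acagggagccatCATTCCtgcctgggaatc
Of the 10 canonical 3′ UTRs, read on the transcript strand, 0 held the 8mer ACATTCCA, the 7mer-m8 ACATTCC or the 7mer-A1 CATTCCA. Among 19559 canonical 3′ UTRs in GENCODE release 44, 4.82% held the 8mer and 19.9% held a 7mer or an 8mer. The shorter match CATTCC, which also lies inside each of the longer ones, was in 2 of the 10 members and in 32.9% of all 3′ UTRs. A match of letters describes the window and does not show that miR-1 binds there.

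Each library held 15543301 to 20939985 counts with miR-1 OE and its controls, and 5339360 to 9106478 counts in the knockout experiment. Levels are counts-per-million (CPM) of the scaled library total, and the 2 series were normalized separately. MPC1 was lower with the deletion and its KO and EV libraries did not overlap in any line, at 23.5 to 26.0 against 53.7 to 58.3 CPM in MV4-11, 33.2 to 41.0 against 72.9 to 80.1 CPM in Molm-14 and 50.3 to 58.9 against 90.6 to 100.3 CPM in THP-1. MIR133A1HG, a host transcript of miR-1, had 44 to 73 counts in the MV4-11 OE libraries, 34 to 60 in those of Molm-14 OE and 0 with either EV. All 10 myeloid markers examined had counts in every group, and 9 or 10 of them averaged at least 1 CPM. Over all groups, summed levels reached at most 3.59 CPM for 6 endothelial markers, 6.80 CPM for 6 neuronal markers and 12.6 CPM for 6 erythroid and megakaryocyte markers, while NK and T cell markers (up to 208.9 CPM) and B cell markers (up to 119.7 CPM) were highest in Molm-14. In each Molm-14 group only 1 of the 4 B cell markers averaged at least 1 CPM. Of the 7 NK and T cell markers 2 or 3 did so there, and CD3E and KLRD1 had 0 counts. MV4-11 OE replicate 1 and MV4-11 EV replicate 3 stood apart by their interferon-stimulated genes, of which 20 averaged 5.28 and 3.26 log2 CPM there and 0.875 to 1.19 log2 CPM in the other MV4-11 libraries of that series.

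ADGRL3, a latrophilin, was the member with the largest difference in MV4-11 cells with the MPC1 deletion. It was at 50.4, 50.6 and 53.4 CPM in the MV4-11 EV libraries and at 21.8, 20.6 and 20.7 CPM in the KO libraries. The KO libraries lay close together and all were below the EV libraries. The log2 fold change was -1.29 with a standard error (SE) of 0.086, which is a 2.45-fold lower level. In Molm-14 the same deletion left ADGRL3 at 55.1, 52.7 and 62.7 CPM in KO against 61.9, 61.2 and 59.2 CPM in EV, and the groups overlapped (log2 fold change -0.10, SE 0.079, false discovery rate (FDR) by edgeR 0.760). In THP-1 it was at 417.1, 438.2 and 412.5 CPM in KO against 408.7, 399.6 and 427.1 CPM in EV, again with overlap (log2 fold change 0.04, SE 0.070, FDR 0.914). As these are bulk samples, fewer cells that express a gene and less RNA per cell cannot be told apart.

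In the same MV4-11 contrast ADGRL2, another latrophilin, was at 2.42, 2.51 and 2.64 CPM in KO and at 1.51, 1.48 and 1.85 CPM in EV, so that its KO libraries were all higher. These levels rest on 17 to 21 counts in KO and 11 to 13 counts in EV per library (log2 fold change 0.65, SE 0.21). ADGRL1 was as low, at 1.71 to 2.51 CPM in KO and 1.08 to 2.00 CPM in EV, and overlapped (log2 fold change 0.42, SE 0.39). The leukocyte receptors ADGRE2 and ADGRE5 and the group G receptor ADGRG5 overlapped too, with log2 fold changes of -0.04 (SE 0.15), 0.00 (SE 0.14) and 0.14 (SE 0.096). ADGRE1 had 4 to 13 counts per library in these 6 libraries (log2 fold change 0.51, SE 0.41). Across all genes tested in this contrast 5.41% passed an FDR of 5%, and nothing is read from the members against it, since the contrast chose them. The share of all genes without overlap is not given for this contrast, so nothing is read from which members overlapped. Of the 10 myeloid markers, PTPRC was higher and SPI1 lower in MV4-11 KO, and their summed level overlapped between KO (6385 to 7374 CPM) and EV (6517 to 8072 CPM). The 20 interferon-stimulated genes summed to 335.6 to 353.7 CPM in KO and 302.2 to 310.4 CPM in EV. Among 7 NK and T cell markers NCAM1 fell (0.877 to 1.38 against 1.86 to 3.24 CPM, FDR 0.0499), and the share of counts in mitochondrial genes was 0.140 to 0.202% in KO and 0.211 to 0.452% in EV. The part of these differences in the ADGRL3 value was not tested.

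**Figure D1:**
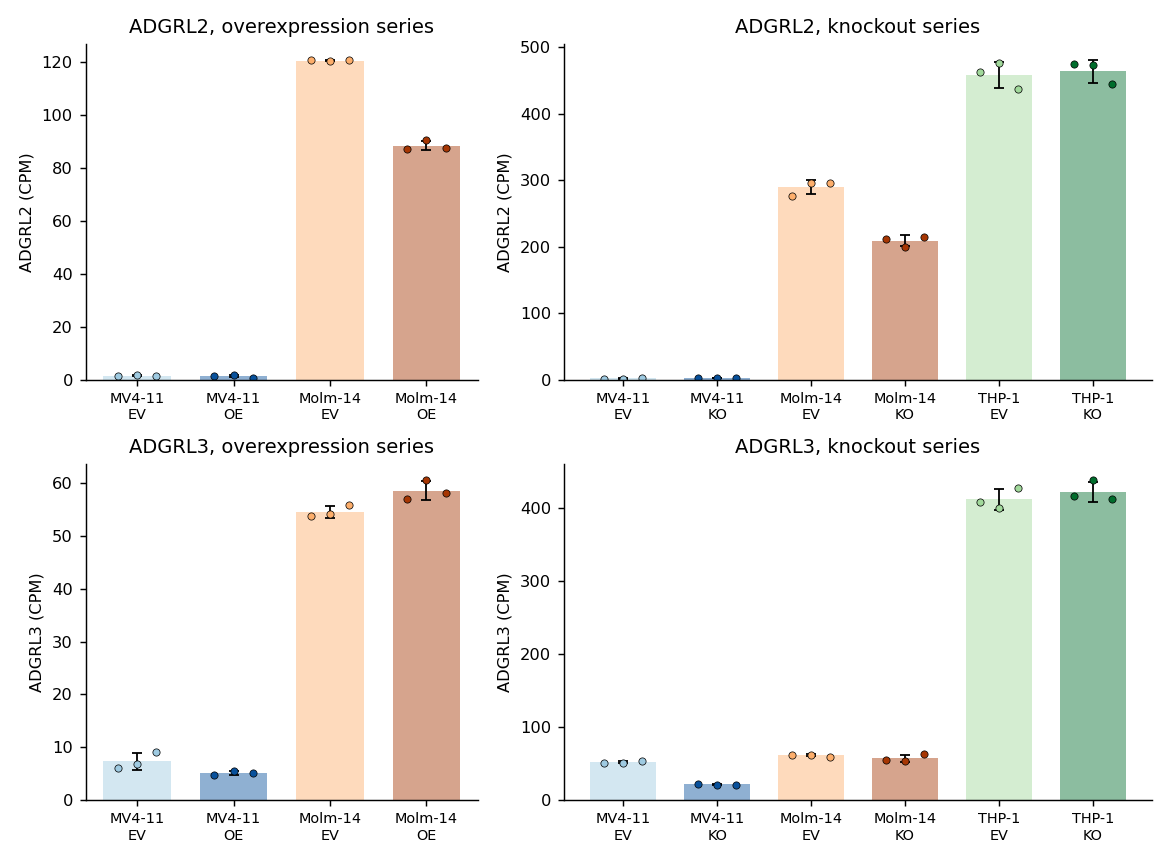
CPM of ADGRL2 and ADGRL3 in each library (points), with the group mean (bar, from 0) and SD (error bar, n = 3), by line and vector; the vertical scales differ between panels. ADGRL3 lies at 20.6 to 21.8 CPM in the MV4-11 KO libraries and at 50.4 to 53.4 CPM in their EV libraries, while ADGRL2 is lower in Molm-14 with miR-1 OE and with the MPC1 deletion than in the EV libraries of the same series.

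ADGRL2 was the member with the largest difference in Molm-14 cells with miR-1 OE. It was at 87.2, 90.4 and 87.6 CPM in the OE libraries and at 120.7, 120.2 and 120.7 CPM in the EV libraries. The groups did not overlap, and the log2 fold change was -0.45 (SE 0.076), a 1.36-fold lower level. ADGRL3 was at 57.0, 60.6 and 58.1 CPM in OE and at 53.7, 54.2 and 55.9 CPM in EV, a difference of 0.10 on the log2 scale (SE 0.087) with OE on the higher side in every library. The other 4 members fitted overlapped between OE and EV, with log2 fold changes from -0.03 for ADGRG5 to 0.05 for ADGRE2. This contrast chose ADGRL2 and the members have no test in it, while 0.0057% of all genes tested passed the FDR there. The share of all genes without overlap is not given for this contrast, so nothing is read from which members overlapped. The summed level of the 10 myeloid markers was 705.2 to 734.2 CPM in Molm-14 OE and 646.4 to 659.6 CPM in EV, and the mitochondrial share of counts was 3.50 to 3.76% and 2.89 to 3.20%. Their part in the ADGRL2 value was not tested.

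The members were chosen with earlier results of these data known, which limits how far the next test stands apart from the choice. The MPC1 deletion in Molm-14 is in a separate series that the stated choice of ADGRL2 did not use, and there ADGRL2 fell as well. It was at 211.9, 199.6 and 215.3 CPM in the KO libraries and at 277.0, 296.4 and 296.2 CPM in the EV libraries. Every KO library lay below every EV library, and the mean was 208.9 ± 8.27 CPM (SD, n = 3) against 289.9 ± 11.2 CPM. The log2 fold change was -0.47 (SE 0.069, FDR 7.52e-05), a 1.39-fold lower level. ADGRL2 was the 1 member of 7 that passed the FDR in this comparison, where 2.40% of all genes passed in either direction and 1.06% were lower. The median log2 fold change of the 7 members was -0.22 and that of all genes 0.00.

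ADGRE1 was the other member whose Molm-14 groups did not overlap, at 3 to 6 counts per KO library and 6 to 12 per EV library (log2 fold change -0.79, SE 0.45, FDR 0.591). Groups without overlap made up 16.4% of all genes in this comparison. ADGRL1 was at 23.0 to 28.7 CPM in KO and 25.2 to 40.3 CPM in EV (log2 fold change -0.26, SE 0.17, FDR 0.678). ADGRE2, ADGRE5 and ADGRG5 overlapped between the groups, with log2 fold changes of -0.22 (FDR 0.688), -0.05 (FDR 0.978) and 0.15 (FDR 0.760).

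Some markers of cell types also differed between these Molm-14 groups. The summed level of 10 myeloid markers ran from 1196 to 1202 CPM in KO and from 877.8 to 947.5 CPM in EV. Of the 10, which were all tested, LYZ was higher in KO (624.2 to 627.5 against 285.4 to 346.7 CPM). MPO was lower (37.5 to 43.5 against 80.7 to 93.0 CPM), and 8 did not pass. The rise of the sum was close in size to that of LYZ alone. The sum of 5 eosinophil markers was 4.92 to 6.30 CPM in KO and 14.2 to 15.8 CPM in EV. Nearly all of it was EPX, the 1 gene of that list tested, which fell (4.92 to 5.99 against 13.9 to 15.6 CPM, FDR 4.44e-05), with the defining genes CLC and SIGLEC8 at 0 counts in both groups, and PRG2 also at 0 in KO. The sum of 5 neutrophil markers was 5.20 to 6.52 CPM in KO and 2.59 to 4.04 CPM in EV, of which CXCR2, the 1 gene tested, rose (5.20 to 6.25 against 2.48 to 3.87 CPM, FDR 0.0095). The 4 B cell markers summed to 27.3 to 36.2 CPM in KO and 38.0 to 56.3 CPM in EV, with MS4A1 at 0 in both. Only 1 of the 4 averaged at least 1 CPM in each group, and the 1 gene tested did not pass. The part of these differences in the ADGRL2 result was not tested.

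In THP-1 the MPC1 deletion left ADGRL2 at 474.8, 473.0 and 444.3 CPM, against 463.6, 475.9 and 436.9 CPM with EV. The groups overlapped (log2 fold change 0.02, SE 0.068, FDR 0.968). The difference of the KO effect between the lines, tested in the same model, was -0.49 for ADGRL2 on the log2 scale (Molm-14 minus THP-1, SE 0.096, FDR 0.0075). It was the 1 of 7 members to pass, where 0.766% of all genes passed. In THP-1 itself, 0 of the 7 members passed by edgeR, 0 passed by DESeq2 and 0 had an unadjusted p under 5%. Of all genes, 0.0897%, 0.104% and 8.01% did so. Groups without overlap were found for 0 of 7 members, against 13.6% of all genes. ADGRE2 had the largest value in THP-1, at 5.55 to 7.57 CPM in KO and 3.46 to 6.89 CPM in EV (log2 fold change 0.40, SE 0.26, FDR 0.715).

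**Figure D2:**
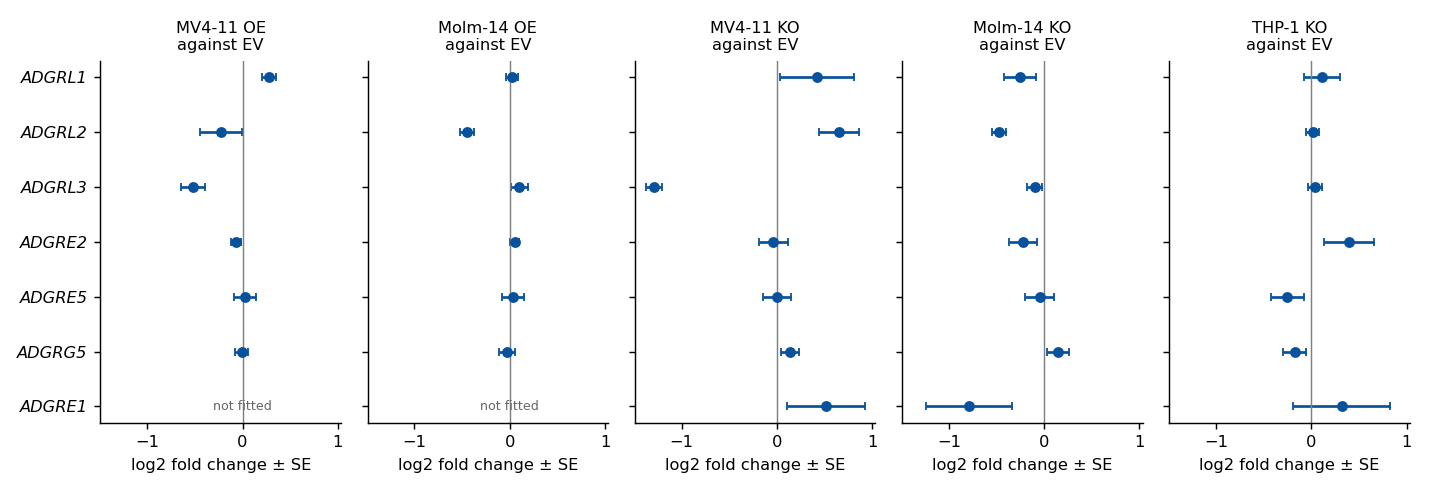
Fitted log2 fold change (horizontal axis) of each member against the matching EV group, with bars of ±1 SE, n = 3 libraries a group. ADGRL3 in MV4-11 KO (-1.29) and ADGRL2 in Molm-14 OE (-0.45) chose the gene group, and ADGRL2 in Molm-14 KO (-0.47) is the value that passed a test.

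In MV4-11 cells with miR-1 OE, 0 of 6 members passed the FDR by edgeR, where 0.177% of all genes did. DESeq2 called 1 member (ADGRL3) and 0.382% of all genes, edgeR with no filter beyond 1 count called 2 (ADGRL3 and ADGRL1) and likewise 0.382% of all genes, and 2 members had an unadjusted p under 5%, as had 5.90% of all genes. ADGRL3 was at 4.60, 5.42 and 5.11 CPM in OE and at 5.97, 6.85 and 9.01 CPM in EV. The OE libraries were all lower, by a log2 fold change of -0.52 (SE 0.13, FDR 0.151). Its highest value came from EV replicate 3, one of the libraries with high interferon-stimulated genes, and without that library the log2 fold change was -0.34 (FDR 0.437). With both interferon-high libraries left out it was -0.28 (FDR 0.547).

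ADGRL1 was the other member whose MV4-11 OE and EV groups did not overlap, in the opposite direction. It was at 44.03, 46.1 and 43.0 CPM in OE and at 39.4, 31.9 and 38.7 CPM in EV (log2 fold change 0.28, SE 0.071, FDR 0.175). Groups without overlap made up 9.17% of all genes in this comparison. Without both interferon-high libraries the value was 0.33 (FDR 0.05002). ADGRL2 rested on 13 to 36 counts per library and overlapped, at 0.722 to 1.70 CPM in OE and 1.33 to 1.74 CPM in EV (log2 fold change -0.22, SE 0.22). ADGRE2, ADGRE5 and ADGRG5 had log2 fold changes of -0.07, 0.03 and -0.01, and for each of these the groups overlapped. ADGRE5 was highest in the same interferon-high libraries, at 244.0 CPM in OE replicate 1 and 247.5 CPM in EV replicate 3, with 177.8 to 215.0 CPM in the other 4, and ADGRG5 was likewise highest there.

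The largest fitted differences of these receptors were between lines with the empty vector. ADGRL2 separated MV4-11 from the other lines, at 1.48 to 1.85 CPM in MV4-11, 277.0 to 296.4 CPM in Molm-14 and 436.9 to 475.9 CPM in THP-1 of the knockout series. All neighbours in that order differed, by -7.49 (SE 0.12, FDR 3.06e-26) between MV4-11 and Molm-14 and by -0.66 (SE 0.068, FDR 1.96e-09) between Molm-14 and THP-1, on the log2 scale. In the overexpression series ADGRL2 was at 1.33 to 1.74 CPM in MV4-11 and 120.2 to 120.7 CPM in Molm-14, a log2 difference of -6.33 that is given without a test because it shares the EV libraries of the contrast that chose the gene.

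ADGRL3 was highest in THP-1, at 399.6 to 427.1 CPM, followed by Molm-14 at 59.2 to 61.9 CPM and MV4-11 at 50.4 to 53.4 CPM. Molm-14 was below THP-1 (log2 difference -2.76, SE 0.077, FDR 1.76e-21), while the MV4-11 differences of -0.24 from Molm-14 and -3.00 from THP-1 are descriptions only. In the overexpression series, which did not choose ADGRL3, the gene was at 5.97 to 9.01 CPM in MV4-11 and 53.7 to 55.9 CPM in Molm-14 (log2 difference -2.91, SE 0.10, FDR 3.25e-15). ADGRL1 was highest in Molm-14 (25.2 to 40.3 CPM), then THP-1 (14.8 to 23.7 CPM) and MV4-11 (1.08 to 2.00 CPM) in the knockout series. Its neighbours differed, by 0.81 (FDR 0.00026) between Molm-14 and THP-1 and by -3.52 (FDR 2.01e-11) between MV4-11 and THP-1.

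Among the leukocyte receptors, ADGRE2 was higher in both FLT3-mutant lines than in THP-1. It was at 56.3 to 84.3 CPM in Molm-14, 38.7 to 51.0 CPM in MV4-11 and 3.46 to 6.89 CPM in THP-1, with log2 differences of 3.73 for Molm-14 against THP-1 (SE 0.20, FDR 6.72e-14) and -0.55 for MV4-11 against Molm-14 (SE 0.15, FDR 0.0027). ADGRE5 was lowest in THP-1 as well, at 20.6 to 31.2 CPM against 40.0 to 50.5 CPM in Molm-14 (log2 difference 0.87, SE 0.16, FDR 3.94e-05). Its difference between MV4-11 and Molm-14 stood at the threshold (0.34, SE 0.15, FDR 0.0497), was not past it when any of 4 libraries was left out (without MV4-11 EV replicate 2 or 3 or Molm-14 EV replicate 1 or 3, FDR up to 0.175), and had an FDR of 0.0525 with replicate numbers as a block.

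ADGRG5, an orphan group G receptor, was highest in MV4-11. It was at 66.8 to 75.6 CPM there, at 17.1 to 21.2 CPM in Molm-14 and at 18.1 to 22.8 CPM in THP-1. MV4-11 was above Molm-14 by 1.86 (SE 0.11, FDR 2.02e-14) and above THP-1 by 1.79 (SE 0.11, FDR 4.75e-14) on the log2 scale, while Molm-14 and THP-1 overlapped (-0.07, SE 0.12, FDR 0.612).

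**Figure D3:**
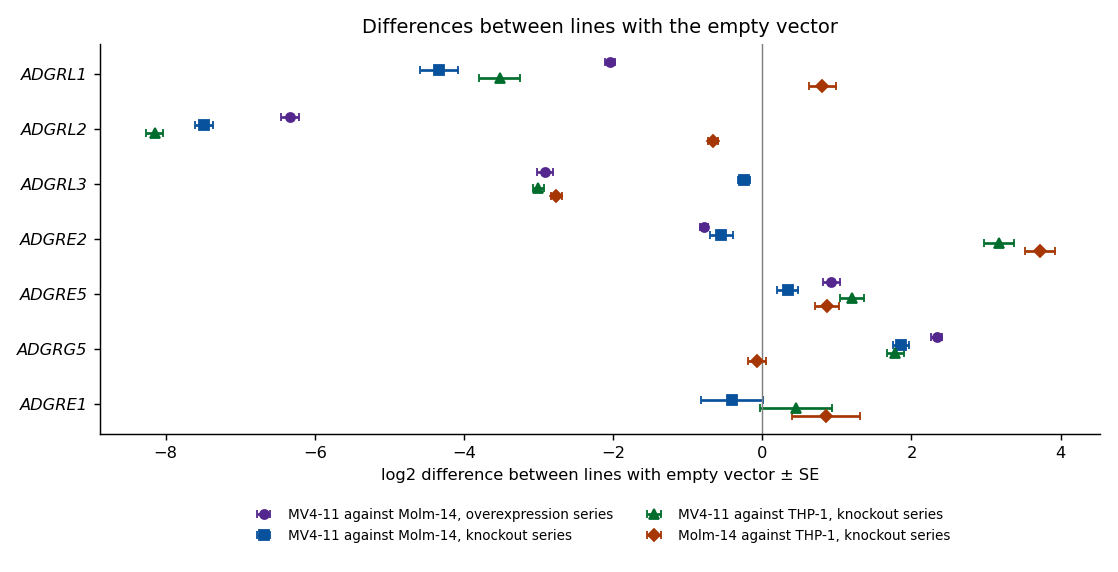
Log2 difference between lines with the empty vector (horizontal axis, ±1 SE, n = 3 libraries a group) for each member, by pair of lines and series; values below 0 are lower in the first-named line. The largest differences are those of ADGRL2 (-8.15 against THP-1, -7.49 and -6.33 against Molm-14), and the MV4-11 against Molm-14 values of ADGRL3 lie apart between the series (-2.91 and -0.24).

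Leaving out ADGRL2 in the overexpression series and ADGRL3 wherever MV4-11 of the knockout series entered, 5 of 5 passed between MV4-11 and Molm-14 in the overexpression series, where 64.8% of all genes passed. In the knockout series 5 of 6 passed between MV4-11 and Molm-14 (61.7% of all genes), 5 of 6 between MV4-11 and THP-1 (67.5%) and 5 of 7 between Molm-14 and THP-1 (69.6%). These counts are over members that passed the filter, the lines differed in most genes, and the comparisons that involve Molm-14 EV of the overexpression series or MV4-11 EV of the knockout series use EV libraries of the contrasts that chose the group.

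The order of the members within a line was read from CPM per kilobase of exon. The length was the union of all annotated exons, at 24178 bases for ADGRL2, 14923 for ADGRL3 and 5382 for ADGRE5, and the order depends on it. In THP-1 EV the mean CPM of ADGRL2 (458.8) was above that of ADGRL3 (411.8), the reverse of their order per kilobase. In MV4-11 EV of the overexpression series ADGRE5 led at 39.1 and ADGRG5 followed at 22.2 CPM per kb. In Molm-14 EV of that series ADGRE2 (21.0), ADGRE5 (20.6) and ADGRL1 (17.8 CPM per kb) were close. In the knockout series ADGRG5 (12.6) and ADGRE5 (10.6 CPM per kb) led in MV4-11 EV, ADGRL2 (11.99 CPM per kb) in Molm-14 EV, and ADGRL3 (27.6) and ADGRL2 (19.0 CPM per kb) in THP-1 EV.

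**Figure D4:**
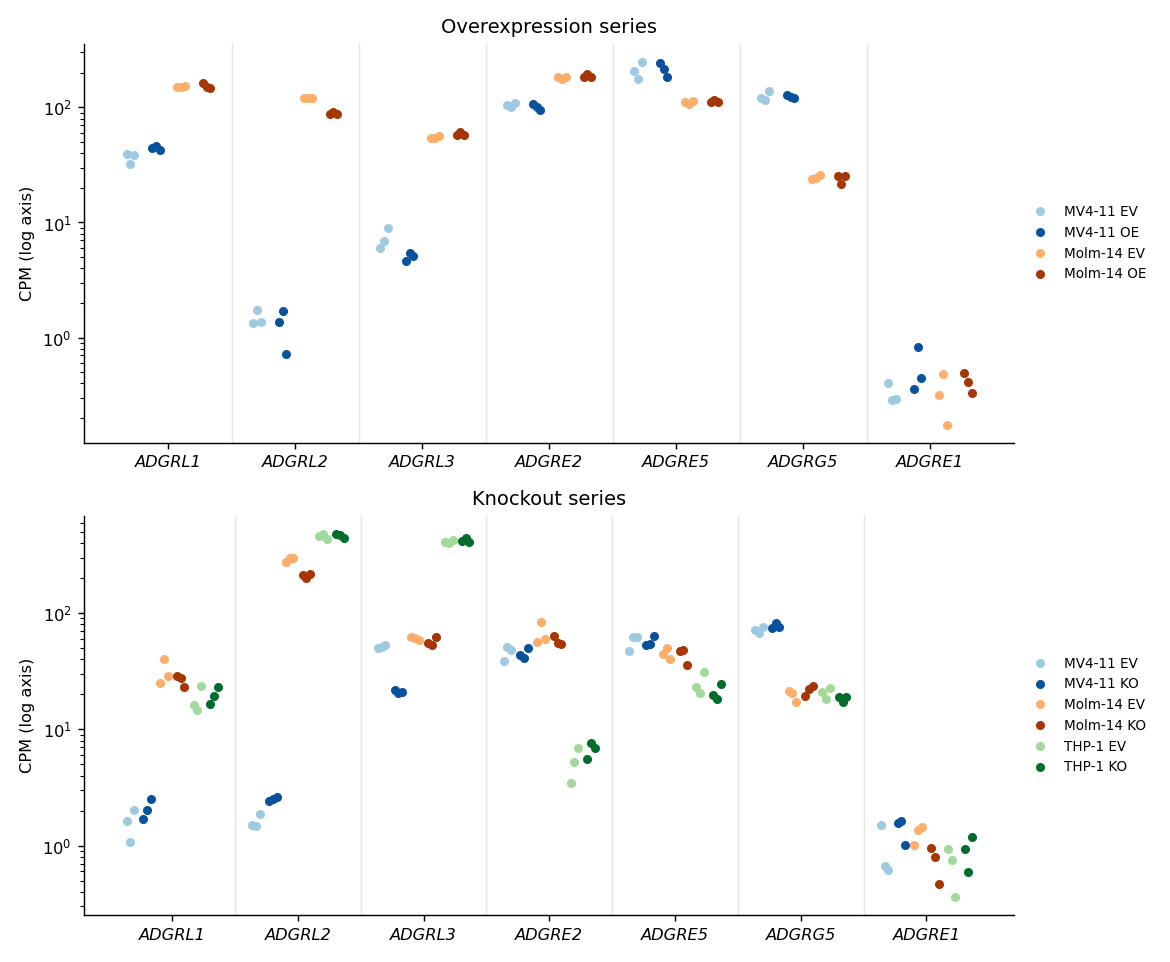
CPM (logarithmic axis) of 7 members in every library of both series, with 1 point a library, coloured by line and vector; ADGRL4, ADGRG1 and ADGRG3 are not drawn. The widest spread is that of ADGRL2, at 1.48 to 1.85 CPM in MV4-11 EV and 436.9 to 475.9 CPM in THP-1 EV of the knockout series.

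The remaining members were at or near 0 in these cells. ADGRL4, an endothelial receptor, had 1 count in all over 12 overexpression libraries and 0 in 18 knockout libraries, where a count of 0 allows up to 0.329 to 0.562 CPM per library (counting error only). ADGRG1 had 6 counts over the overexpression series and 2 over the knockout series. ADGRG3 had 60 and 11 counts, with at most 11 in a library (MV4-11 EV replicate 3, which also had high interferon-stimulated genes). ADGRE1 had 86 and 129 counts, at most 1.63 CPM in any library, and passed the filter in the knockout series alone. Of these genes only ADGRE1, in the knockout series, had a test with the filter, and it passed in 0 comparisons by edgeR. With no filter beyond 1 count, ADGRG3 passed between MV4-11 EV (0 counts in each library) and THP-1 EV (2 counts in each; FDR 0.033), where 30.5% of all genes passed; a level of 2 counts is under the 3 that a count of 0 allows.

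Other genes of the same receptor system were read from lists arranged by role. Of 23 other adhesion GPCR genes, 9 could be tested with miR-1 OE and 11 with the MPC1 deletion, and 1 passed in the 5 treatment comparisons. This was ADGRA2, a receptor that acts in WNT7 signaling of brain vessels, which fell in Molm-14 KO to 21.2 ± 1.27 CPM from 38.0 ± 3.69 CPM (n = 3 each, log2 fold change -0.85, SE 0.11, FDR 1.87e-05). Of all genes tested in Molm-14 KO, 2.40% passed. The medians of the list were between -0.13 in Molm-14 KO and 0.11 in MV4-11 OE, with all genes between 0.00 and 0.02 in the 5 comparisons.

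Of 14 teneurin, FLRT and UNC5 genes, which encode latrophilin ligands and their partners, 5 were tested in each series. UNC5C, a netrin receptor, fell in MV4-11 KO to 145.4 ± 16.8 CPM from 200.1 ± 25.7 CPM (log2 fold change -0.46, FDR 0.013), and the other 4 did not pass in that comparison. Of 10 ligands and partners of ADGRE5 and ADGRG1, CD55, the ligand of CD97, rose in MV4-11 KO to 15.4 ± 1.33 CPM from 10.7 ± 0.945 CPM (log2 fold change 0.51, FDR 0.034), with 7 tested. Of 13 G protein alpha subunit genes, 12 tested, GNAI1 rose (0.99 log2, 3.76 to 6.69 CPM against 1.39 to 3.10 CPM, FDR 0.044) and GNAQ fell (-0.36 log2, 179.7 ± 8.75 CPM against 231.1 ± 21.4 CPM, FDR 0.0066) in MV4-11 KO. Of all genes tested in MV4-11 KO, 5.41% passed. None of the 4 genes named here passed by edgeR in another of the 5 comparisons. In MV4-11 KO the median log2 fold changes were -0.40 for the latrophilin ligand list, 0.02 for the ADGRE5 and ADGRG1 list and 0.19 for the G protein list, against 0.02 for all genes.

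The genes most like ADGRL3 and ADGRL2 in level were found by Pearson correlation of log2 CPM. For ADGRL3 over the 18 libraries of the knockout series these were METTL7B (r = 0.983), THSD7A (r = 0.981) and CX3CR1 (r = 0.981), out of 14490 genes. For ADGRL2 over the 12 libraries of the overexpression series they were PRR34-AS1 (r = 0.998), NUS1 (r = 0.997) and HOTTIP (r = 0.997), out of 17542 genes. The libraries fall into lines, so a value of this kind mostly describes levels that differ between lines, and it is given with no test.

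Some of these genes share sequence or position with others. ADGRL1 (chr19:14147743-14206187, minus strand) lies opposite ADGRL1-AS1, which had 126 to 261 counts a library of the overexpression series and 5 to 33 in a library with or without the MPC1 deletion. ADGRE2 (chr19:14732392-14778560, minus strand) overlaps ZNF333 on the other strand, which had 623 to 996 and 124 to 428 counts. ADGRL3 (chr4:61200326-62078335, plus strand) holds the pseudogene RPL17P19, with 0 to 61 and 2 to 92 counts, and ADGRL2 lies at chr1:81306147-81993932 on the plus strand. The sources do not say whether the strand was used in counting, so reads of opposite genes cannot be told apart, and ADGRE2 and ADGRE5 share nearly identical EGF modules whose reads may be split between them.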

How the data were processed

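RNA-seq of 30 AML cell line libraries was analysed from 2 tables of counts. The authors trimmed reads (cutadapt 1.16, per the submitters' processing notes), removed optical duplicates, aligned to GRCh38 (Ensembl annotation) with STAR 2.7.6a in two-pass mode and counted genes with featureCounts 1.6.3. The deposited counts were whole numbers, not normalized. The tables list different numbers of genes, and levels were not tested between them. No column was left without a library. Symbols and 3′ UTRs came from GENCODE release 44.

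Tests used edgeR 4.0.16 in R 4.3.3 (filterByExpr, TMM scaling, robust quasi-likelihood, a mean per group, all libraries of a series in 1 fit) over 17542 and 14490 genes, with Benjamini-Hochberg adjustment and a 5% FDR. log2 CPM used a prior count of 2. Fits were tested on simulated data. The submitters' processing notes name DESeq2 1.30.1, which differs from the version in the study's methods, and DESeq2 1.42.0 was an alternative here. Others were RLE factors, no filter, a replicate block, the compared groups alone and leaving out libraries.

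The genes named are the 10 members, MPC1 and MIR133A1HG, up to 3 called genes for each list and comparison, and the 3 genes most correlated with ADGRL3 and with ADGRL2. Marker genes that passed the test in Molm-14 KO or MV4-11 KO, or that were at 0, were named after their values were seen. Members and lists were chosen with earlier results of these data known. All 137 listed genes had an identifier, and 1 list is not reported here. Same-numbered KO and EV libraries deviated together in THP-1 (correlations 0.385, 0.301 and 0.619) and not in every pair of the other lines. THP-1 KO replicate 1 was as close to EV replicate 2 (0.390), so these values do not settle whether numbers pair the THP-1 libraries. Replicate pairs all differed by more than counting noise (chi-square per degree of freedom at least 1.50), and all libraries were kept. Protein sequences were not used here.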

Additional observations from a re-analysis of the deposited data

Results flagged for a closer look

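The effect of the MPC1 deletion on ADGRL2 differed between lines, with a log2 difference of -0.49 (Molm-14 minus THP-1, edgeR FDR 0.0075). ADGRL2 was lower in 3 of 3 Molm-14 KO libraries than in every EV library, while the THP-1 groups overlapped.

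ADGRL2 also moved in opposite directions in MV4-11 and Molm-14 with the MPC1 deletion, with every KO library above every EV library in MV4-11 and below in Molm-14. The log2 effects differed by 1.13 (MV4-11 minus Molm-14). This difference was not tested, because MV4-11 KO against EV is a contrast that chose the genes, and the MV4-11 level rests on 11 to 21 counts per library. Groups without overlap made up 16.4% of all genes in Molm-14 KO, and that share is not given for MV4-11 KO.

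ADGRL3 with miR-1 OE lay below EV in every MV4-11 library and above EV in every Molm-14 library, and the log2 effects differed by -0.62 (MV4-11 minus Molm-14). This difference was not tested, because Molm-14 OE against EV is the other contrast that chose the genes. Groups without overlap made up 9.17% of all genes in MV4-11 OE, and that share is not given for Molm-14 OE. In MV4-11 the size of the value depended on EV replicate 3 (-0.34 without it), while its direction did not.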

How the results depend on the processing

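The 2 values that chose the genes moved little, with ADGRL3 in MV4-11 KO between -1.32 and -1.26 and ADGRL2 in Molm-14 OE between -0.46 and -0.44 over all alternatives. In MV4-11 OE, DESeq2 called 1 of 6 members (ADGRL3, FDR 0.0471), and edgeR with no filter beyond 1 count called 2 (ADGRL3, FDR 0.0045, and ADGRL1, FDR 0.015); the cause was not tested. ADGRL2 in Molm-14 KO (FDR at most 0.0022) and its difference from THP-1 (FDR at most 0.041) passed in every alternative. Of 763 other member values, 737 kept their direction and side of the threshold or moved by less than the spread between replicates. Of the rest, 14 changed sign in a comparison with a test, 5 lost a call, 4 moved and 3 gained a call. These 14 sign changes were all in values that had not passed. Some sign changes of untested values are counted among the 737, such as ADGRL1 in Molm-14 OE (0.027 with all libraries, -0.021 without OE replicate 1). Leaving out each library in turn gave log2 values of -0.52 to 0.059 for ADGRL2, -0.077 to 0.165 for ADGRE5 and -0.056 to 0.069 for ADGRG5 in MV4-11 OE (0.050 for ADGRG5 without both interferon-high libraries), -0.13 to 0.079 for ADGRE5 in Molm-14 KO, -0.013 to 0.33 for ADGRL1 and -0.017 to 0.049 for ADGRL2 in THP-1 KO, -0.12 to 0.75 for ADGRE1 between MV4-11 and THP-1 EV, and -0.15 to 0.0093 for ADGRG5 between Molm-14 and THP-1 EV. With the replicate number as a block, ADGRL2 in Molm-14 KO was -0.47 (FDR 0.00016) and in THP-1 KO 0 of 7 members passed; the block changed no call other than that of ADGRE5 between MV4-11 and Molm-14 EV in the knockout series (FDR 0.0525).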

Other observations

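The difference between MV4-11 and Molm-14 with the empty vector could be set side by side in the overexpression and knockout series, which were made with different constructs and were normalized separately. For ADGRL3 it was -2.91 and -0.24 on the log2 scale, and for ADGRL1 -2.04 and -4.33. The values for ADGRL2 were -6.33 and -7.49. The 2 differences lay 2.67 apart for ADGRL3 (-2.67, overexpression minus knockout series), and 2.58% of 13627 genes tested in both series were at least as far apart. For ADGRL1 they were 2.29 apart (3.43% of genes) and for ADGRL2 1.155 apart (10.1%), against a median of 0.249 over all genes. In MV4-11 EV of the knockout series ADGRL1 rested on 8 to 14 counts per library and ADGRL2 on 11 to 13. The leukocyte receptors were closer, at -0.78 and -0.55 for ADGRE2 and 0.93 and 0.34 for ADGRE5, as was ADGRG5 at 2.34 and 1.86. In MV4-11 EV the summed level of 10 myeloid markers was 1266 to 1713 CPM in the overexpression series and 6517 to 8072 CPM in the knockout series. In Molm-14 EV it was 646.4 to 659.6 CPM and 877.8 to 947.5 CPM. The part of these marker levels in the receptor values was not tested, and line stock, vector and series cannot be told apart.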
